A study of Mus musculus with 2 samples.

Results

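Lone peaks are stretches of open chromatin that were called in the library of 1 mouse and had neither a peak nor an interval below the significance limit in that of the other. They were selected on the peak calls themselves. A peak of 1 library was a member when it overlapped by 1 bp neither a peak of the other library's longer list nor any interval under 0.05 in the other library's table of false discovery rates. Only the 19 autosomes were used, and each direction was taken apart. Replicate 1 had 25592 lone peaks among 153552 autosomal peaks, a share of 16.7%. Replicate 2 had 32842 lone peaks among 161778, a share of 20.3%. Both longer lists together held 323801 peaks on all chromosomes. The other 127960 and 128936 autosomal peaks are called shared here. Of these, 123457 and 123739 overlapped a peak of the other library, and 4503 and 5197 touched only an interval under the limit.

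The assay was DNase-seq, in which the nuclease DNase I cuts accessible DNA in isolated nuclei. Adrenal gland tissue was taken from B6CASTF1/J mice, all female and 36 days old. These are F1 hybrids of C57BL/6J and CAST/EiJ from The Jackson Laboratory. The 2 libraries are biological replicates 1 and 2 of a single group, from animals with different numbers but the same donor record, and no treatment or second genotype is given. A lone peak is therefore a difference between 2 libraries of 1 group, and with 1 library on each side no test was possible. These animals carry 1 genome of each parental strain, the files are on the C57BL/6J-based assembly mm10, and alleles were not analysed here. Of the markers of the tissue, promoter heights were 6.62 and 11.7 at Nr5a1 and 6.31 and 9.07 at Star (cortex), and 0.738 and 0.989 at Th and 1 and 1.14 at Dbh (medulla), in replicates 1 and 2. The liver genes Alb and Ttr and the kidney gene Umod were without a promoter peak in both libraries.

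Open chromatin is where nucleosomes have been displaced by transcription factors, and most such sites lie at promoters, enhancers and insulators. A footprint is a short stretch inside an open site that is protected from cutting, as by a bound protein. In the adrenal cortex the nuclear receptor SF-1 governs genes of steroid synthesis, AP-1 factors (Fos and Jun proteins) act at enhancers that respond to stimuli, and CTCF binds insulators and the anchors of chromatin loops.

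The sequences of the tallest lone peaks with a footprint in each direction are shown first, as the central 200 bases of the peak with the bases inside deposited footprints in capitals. All sequences are from the plus strand of mm10 (GRCm38.p6). In replicate 1 this was chr9:106716341-106716520, in an intron of Rad54l2, with a height of 2.66 and 3 footprints. It has 34% GC and holds 1 match of the AP-1 consensus TGANTCA. In replicate 2 it was chr11:96262581-96262760, in an exon of the noncoding RNA Gm53 and 8.79 kb from the start of Hoxb9, with a height of 4.49 and 3 footprints. It has 52% GC and holds a match of the CTCF consensus (CCA, any 2 bases, AG, any 2 bases, GGC), which the second footprint overlaps. The other library's nearest interval under the limit lay 66 bp from the first peak and 699 bp from the second.
Replicate 1, Rad54l2 intron: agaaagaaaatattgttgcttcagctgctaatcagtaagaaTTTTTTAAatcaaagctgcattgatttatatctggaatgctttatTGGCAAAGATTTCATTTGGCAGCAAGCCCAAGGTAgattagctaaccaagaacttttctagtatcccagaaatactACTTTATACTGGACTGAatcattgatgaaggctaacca
Replicate 2, Gm53 exon near Hoxb9: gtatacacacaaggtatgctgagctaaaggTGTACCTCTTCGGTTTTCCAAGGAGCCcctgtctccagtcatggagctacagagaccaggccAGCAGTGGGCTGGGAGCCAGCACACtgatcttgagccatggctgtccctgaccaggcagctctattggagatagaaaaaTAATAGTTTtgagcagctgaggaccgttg

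Shorter windows show what a footprinted consensus looked like in lone peaks. They were chosen after the values were seen, as the tallest lone peaks in an intron or between genes in which a footprint overlapped a match of AP-1 (TGACTCA or TGAGTCA), SF-1 (CAAGGTCA) or CTCF, with the match in capitals and 24 bases on either side. In replicate 1 they came from chr6:42241421-42241580 (4.43 kb from Gstk1, height 2.32), chr7:68065121-68065320 (intron of Igf1r, 2.49) and chr16:91358541-91358740 (14.1 kb from Ifnar2, 2.13). In replicate 2 they came from chr16:44553981-44554180 (intron of Boc, 1.71), chr5:114565881-114566034 (2.06 kb from Fam222a, 1.97) and chr8:70763461-70763620 (intron of a noncoding gene, 2.6 kb from Mpv17l2, 2.38).
Replicate 1, AP-1: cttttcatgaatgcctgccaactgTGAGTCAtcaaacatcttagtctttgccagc
Replicate 1, SF-1: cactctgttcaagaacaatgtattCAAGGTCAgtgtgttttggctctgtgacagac
Replicate 1, CTCF: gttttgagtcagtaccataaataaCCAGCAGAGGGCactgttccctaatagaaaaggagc
Replicate 2, AP-1: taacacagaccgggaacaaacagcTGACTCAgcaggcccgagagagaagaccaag
Replicate 2, SF-1: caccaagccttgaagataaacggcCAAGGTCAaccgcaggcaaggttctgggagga
Replicate 2, CTCF: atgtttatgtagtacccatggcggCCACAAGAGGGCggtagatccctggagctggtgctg

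Lone peaks were low. Their median height, in the authors' signal, was 0.402 in replicate 1, against 1.11 in shared peaks of that library. In replicate 2 it was 0.424, against 1.36 in shared peaks. From the 5th to the 95th percentile the lone heights ran from 0.206 to 0.841 in replicate 1 and from 0.168 to 1.02 in replicate 2. Heights were whole multiples of a step of 0.00934 in replicate 1 and 0.00883 in replicate 2 (100% of values within 0.05 steps), so that the median lone peaks stood at 43 and 48 steps and the median shared peaks at 119 and 154. The number of reads was not analysed here, so no counting interval can be put on a height.

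The share of peaks that were lone fell with height in both libraries. Each library's peaks were divided by height into 10 classes of about equal size. In the lowest class 63.7% of peaks were lone in replicate 1 and 69% in replicate 2. In the fifth class the shares were 9.48% and 16.3%, and in the highest class there was no lone peak in either library. Only 869 lone peaks of replicate 1 (3.4%) and 1739 of replicate 2 (5.3%) stood above the median of all autosomal peaks of their own library, which was 0.906 and 1.01. Heights over 2 were reached by 12 and 54 lone peaks, against 36259 and 47358 shared peaks. The 2 libraries also differed in scale. Among peaks that overlapped, replicate 2 was 1.3-fold higher than replicate 1 at the median (0.38 on the log2 scale, 123457 pairs).

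**Figure D1:**
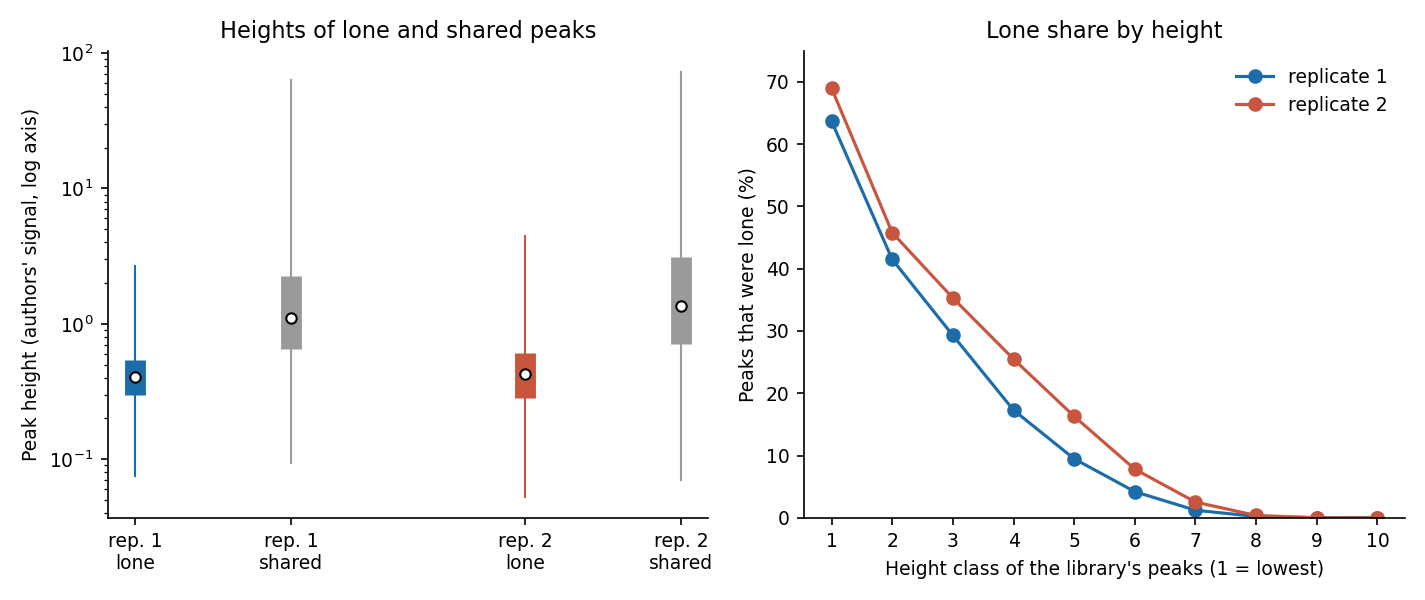
Left, heights of lone and shared autosomal peaks of each library on a log axis, with thin lines from the lowest to the highest peak, thick bars from the lower to the upper quartile and circles at the medians. Right, the percentage of peaks that were lone in each of the 10 height classes. Lone peaks have medians of 0.402 and 0.424 against 1.11 and 1.36 for shared peaks, and the lone share falls from over 60% to none.

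Heights on the 2 sides of the rule's limit overlapped, with taller peaks just outside it. Lone peaks with an interval of the other library within 20 bp, just inside the rule, numbered 353 and 453 and had median heights of 0.411 and 0.441. Peaks just outside the rule overlapped no peak of the other library, but their lowest value there was 0.04 to 0.05. They numbered 1115 and 1445 and had medians of 0.514 and 0.591. Their quartiles were 0.392 to 0.682 and 0.424 to 0.812, against 0.318 to 0.533 and 0.327 to 0.627 just inside. Footprints lay in 55.8% and 59.1% of them, against 34.6% and 32.9% just inside. The set inside was marked off by distance and the set outside by value. Over all lone peaks the footprint shares were 44% and 42.1%. Further outside, where the other library had no peak but a lowest value under 0.001, they were 30.9% and 33%. The median heights there were 0.804 and 1.34. An interval of the other library lay within 500 bp of 21.1% of lone peaks of replicate 1 and 24% of those of replicate 2. For 41.5% and 38.2% the nearest interval was over 5 kb away. Lone peaks were also narrower than shared ones, at a median of 127 and 124 bp against 180.0 bp in both libraries. Shared peaks weighted to the height classes of the lone peaks had 152 and 148 bp. The authors' shorter peak list of the same library covered 15.8% and 13% of lone peaks, against 75.4% and 77.4% of shared peaks. With the same weighting it covered 27.9% and 30% of shared peaks.

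Base composition went opposite ways in the 2 directions. The central 200 bp of lone peaks had a median GC content of 47% in replicate 1 and 51.5% in replicate 2, while shared peaks had 52.5% in both. Because low peaks differ from tall ones, shared peaks were also weighted to the same height classes as the lone peaks. Their median was then 50% in replicate 1 and 49% in replicate 2. At equal height, lone peaks were thus AT-richer than shared ones in replicate 1 and GC-richer in replicate 2. Among peaks of the lowest 3 height classes with under 40% GC, 69.9% were lone in replicate 1 and 35.8% in replicate 2. At 60 to 65% GC the shares were 28.2% and 64.2%, and at 65% or more they were 14.9% and 49.6%.

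The heights of shared peaks moved with GC content in the same way. The median log2 ratio of replicate 2 over replicate 1 was -0.10 in the 2218 pairs under 40% GC, 0.14 in the 29259 pairs from 45 to 50%, 0.50 in the 21095 pairs from 55 to 60% and 0.60 in the 14842 pairs of 65% or more. Pairs with a replicate 1 height under 1 gave -0.11, 0.11, 0.41 and 0.59 in the same bands. In what way this shift between the libraries enters the GC content of the lone peaks was not tested. The lone peaks' own sequences at the top of the list bear the difference, with 34% GC in the tallest of replicate 1 and 52% in the tallest of replicate 2. Among the 10 tallest, GC content ran from 34 to 54% in replicate 1 and from 52 to 77% in replicate 2.

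**Figure D2:**
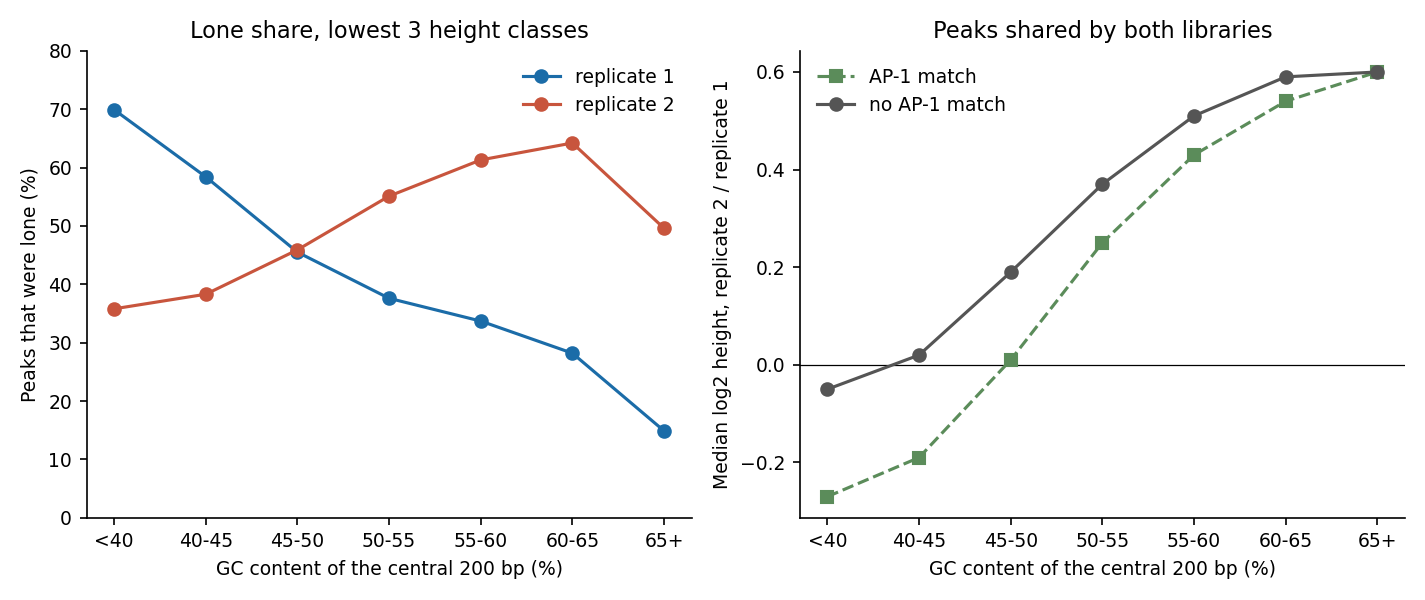
Left, the percentage of peaks in the lowest 3 height classes that were lone, by GC content of the central 200 bp, in each library. Right, the median log2 height ratio of replicate 2 over replicate 1 in shared pairs by the same GC bands, for peaks with and without a TGANTCA match. The lone share falls with GC in replicate 1, from 69.9 to 14.9%, and rises to 64.2% in replicate 2 before the last band, while the ratio in shared pairs rises with GC.

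Lone peaks lay at promoters less often than shared peaks. Promoters, taken as the space within 1 kb of an annotated transcription start site (TSS), held 8.47% of lone peaks in replicate 1 (95% Wilson interval 8.14 to 8.82%) and 11.9% in replicate 2 (11.6 to 12.3%), against 24.5% of shared peaks in both. These intervals cover counting error only. Shared peaks of the same heights had 14.7% in replicate 1 and 11.9% in replicate 2, so that the deficit at equal height was seen in replicate 1 and not in replicate 2. Introns held 46.9% and 45.7% of lone peaks, against 40.7% and 40.6% of shared ones, and the space between genes held 40.7% and 36.1%, against 30% of shared peaks in both. At the same heights shared peaks had 41.8% and 43.2% in introns and 39.1% and 41.1% between genes, so that lone peaks of replicate 2 lay between genes less often than those. Exons held 3.96% of lone peaks in replicate 1, below the 4.86% of shared peaks, and 6.37% in replicate 2, above the 4.9% of shared peaks. The median distance to a TSS was 15956 and 12862 bp in lone peaks, against 8134 and 8098 bp in shared peaks and 15207 and 16634 bp in shared peaks of the same heights. CpG-rich sequence, with an observed to expected CpG ratio over 0.6 and over 50% GC, made up 1.81% and 5.23% of lone peaks, against 17.8% and 18% of shared peaks and 7.02% and 4.61% of shared peaks of the same heights, which is above the lone share in replicate 1 and below it in replicate 2.

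Repeated sequence was more frequent in lone peaks. More than 50% of the central bases were repeat-masked in 8.16% and 12.3% of lone peaks, against 3.39% and 3.49% of shared peaks and 5.64% and 5.66% of shared peaks of the same heights. All 32-mers of the central 200 bp occurred once in the genome for 85.8% and 81.1% of lone peaks, against 91.6% and 91.4% of shared peaks and 87.2% and 87.6% of shared peaks of the same heights. Under 50% of the 32-mers were unique in 2.38% and 3.14% of lone peaks, against 2.26% and 2.16% of shared peaks of the same heights. Across the autosomes the lone share ran from 13.3% to 20% in replicate 1 and from 18.9% to 22.4% in replicate 2.

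Footprints were found in fewer lone peaks than shared ones. The gap was smaller once height was equal, and in replicate 1 it was then seen mainly in the lowest 3 height classes. A footprint of the same library lay in 44% of lone peaks of replicate 1 and 42.1% of those of replicate 2, against 80.6% of shared peaks in both. Shared peaks of the same heights had 46.1% and 49%. The share rose with height. In the lowest class it was 15.2% and 11.4% of lone peaks, against 20.1% and 21.3% of shared peaks. In the fifth class it was 82.8% and 78.7%, against 81.6% and 82.3% of shared peaks. Lone peaks with 3 or more footprints were rare, at 3.96% and 2.68%, against 32% and 30% in shared peaks and 4.58% and 4.44% in shared peaks of the same heights. The other library had no footprint in any lone peak. Per the text deposited with the samples, the inputs to a library's footprints included its table of false discovery rates. The median footprint was 8 bp long in lone peaks of both libraries, against 10 and 11 bp in shared peaks and 8 bp in shared peaks of the same heights.

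Matches of AP-1 set the 2 directions apart. The consensus TGANTCA, searched on both strands in the central 200 bp, occurred in 20.8% of lone peaks of replicate 1, against 17.3% of shared peaks of the same heights. In replicate 2 it occurred in 10.6% of lone peaks, against 20.8%. Over all autosomal peaks the shares were 18.9% and 16.4%. The forms TGACTCA and TGAGTCA, which AP-1 dimers prefer, and the forms TGAATCA and TGATTCA gave ratios of 1.19 and 1.26 in replicate 1 and of 0.494 and 0.497 in replicate 2. The difference was also present within bands of GC content. From 40 to 45% GC, 27.9% of lone peaks of replicate 1 had a match, against 23.9% of shared peaks in the lowest 3 height classes. In the same band of replicate 2 they were 14.5%, against 27.7%. From 55 to 60% GC the lone shares were 9.16% and 7.86%, against 11% and 11.8% in shared peaks, so that both directions had fewer matches there. The excess in replicate 1 was seen in the bands under 50% GC, and the deficit in replicate 2 in every band, down to 3.4% against 3.57% at 60% GC or more.

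Shared peaks with an AP-1 match were also lower in replicate 2, relative to replicate 1, than shared peaks without. The median log2 ratio of replicate 2 over replicate 1 was 0.17 in the 22973 pairs with a match and 0.43 in the 100484 without. From 45 to 50% GC it was 0.01 and 0.19, and at 65% GC or more it was 0.60 in both.

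The other consensuses did not share 1 pattern. CEBP (TTGCNNAA), bound by a family of enhancer factors, was in 14.6% of lone peaks of replicate 1, against 11% of shared peaks of the same heights, and in 8.36% of those of replicate 2, against 12.5%. The consensuses SP/KLF and NRF1, of GC-rich promoters, went the opposite way. SP/KLF (GGGGCGGGG) had 0.555% against 1.33% in replicate 1 and 1.43% against 1.02% in replicate 2, and NRF1 (GCGC, any base, TGCGC) had 0.0391% (10 lone peaks) against 0.207% and 0.198% (65 lone peaks) against 0.126%. SF-1 (CAAGGTCA) was in 4.9% of lone peaks of replicate 1, against 5.2%, and in 3.88% of those of replicate 2, against 5.36%. CTCF was below shared peaks of the same heights in both, at 3.94% against 5.73% and 4.65% against 5.27%. These matches are letters in a window and do not show that a factor was bound. Where a peak had both a match and a footprint, the footprint overlapped the CTCF match in 53.4% of 552 lone peaks of replicate 1 and 61.8% of 870 of replicate 2, against 86.1% and 87.2% of shared peaks. For AP-1 the overlap was 33.1% of 2623 and 22.1% of 1537 lone peaks, against 46.5% and 40.2% of shared peaks. For both consensuses these shared peaks were not weighted to the same heights. How far height enters the gap was not tested.

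**Figure D3:**
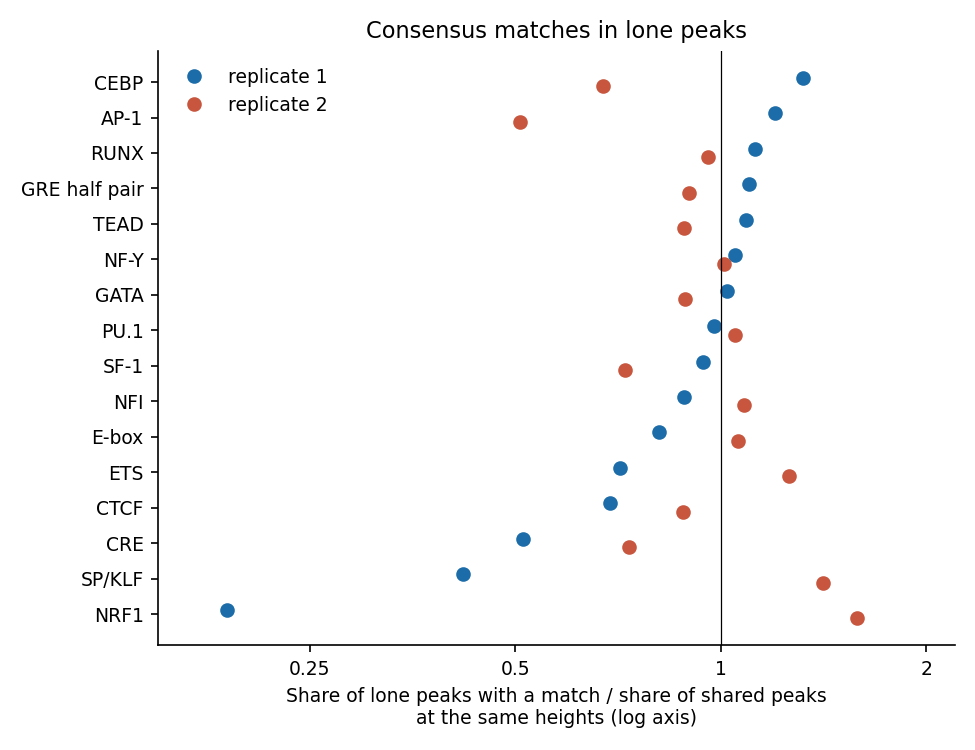
Share of lone peaks with a match of each of 16 consensuses divided by the share in shared peaks weighted to the same heights, on a log axis, for each library. AP-1 lies at 1.2 in replicate 1 and 0.508 in replicate 2, while NRF1 lies at 0.189 and 1.58.

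The tallest lone peaks of replicate 1 lay on 9 chromosomes. After the site in Rad54l2, which encodes a DNA helicase, came chr19:5843001-5843180 in Neat1, the noncoding RNA scaffold of nuclear paraspeckles, at 2.56 with no footprint. A peak in an intron of Igf1r, the receptor of insulin-like growth factor 1, reached 2.49, and a peak in an intron of Fam214a reached 2.4. The seventh, at 2.15, was chr2:38717581-38717800, 3.15 kb from the TSS of Nr5a1, the gene of SF-1, with 2 footprints and an interval of replicate 2 at 159 bp. The tallest at promoters lay in Psmb5, a proteasome subunit gene (1.62, beside the start of Mir686), and in Txn2, the gene of mitochondrial thioredoxin (1.54). The nearest interval of replicate 2 lay between 66 and 3916 bp from the 10 tallest.

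Of the 10 tallest lone peaks of replicate 2, 4 lay in the Hoxb cluster of homeobox genes, which set position along the body axis. These were the Gm53 site at 4.49, chr11:96276001-96276220 in an exon of Hoxb9 at 3.11, chr11:96277441-96277660 at 2.84 and chr11:96293041-96293236 at the promoter of Hoxb6 at 2.56. The second tallest, chr19:5823321-5823540, lay just outside Neat1 at 3.24 with 4 footprints, 101 bp from an interval of replicate 1. The remaining sites were an exon of Zfhx3, a homeobox factor gene (2.75, 77% GC), the overlapping genes Abhd15 and Gm10392 (2.67), an intron of Lrp1, a lipoprotein receptor gene (2.64), the promoter of Plec, which encodes the cytoskeletal linker plectin (2.58), and a site 21.1 kb from Wnt7b (2.52). The last was repeat-masked over 100% of its central window, and 69.8% of its 32-mers were unique.

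Most lone peaks were not part of a run of lone peaks. In replicate 1 82.7% of them, and in replicate 2 78.4%, had no lone peak within 5 kb as the next peak on either side. Where shared peaks in between were ignored, 21.8% and 28.6% had another lone peak within 5 kb. The nearest peak of the same library, lone or shared, lay 3140 and 2440 bp away at the median. Runs of 4 or more consecutive lone peaks numbered 56 and 137 and held 1.01% and 2.15% of lone peaks. The longest run of replicate 1 was 14 low peaks over 6.54 kb in Galnt10, a glycosyltransferase gene, of which the tallest reached 0.392. The longest of replicate 2 was 17 peaks over 8.94 kb in Kcnk3, the potassium channel that holds the resting potential of aldosterone-making cells, of which the tallest reached 1.77. It was followed by 14 peaks over 8.32 kb and 10 over 11.7 kb in Gramd1b, whose protein Aster-B moves cholesterol inside adrenal cells, and by runs in Hoxb3, Hoxb9, Lrp1, Malat1 and Neat1.

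In the Hoxb cluster the 2 directions alternated along the chromosome. From 20 kb before Hoxb9 to the end of Hoxb7 (38.7 kb) replicate 1 had 0 lone peaks of 17 and replicate 2 had 31 of 47. From the end of Hoxb6 to the end of Hoxb4 (20.1 kb) replicate 1 had 11 lone peaks of 20 and replicate 2 had 0 of 8. From there to the end of Hoxb2 (32.4 kb) replicate 1 had 3 of 14 and replicate 2 had 17 of 29. The bases under the limit of the false discovery rate tables followed the same order, with 4413 in replicate 1 and 15869 in replicate 2 in the first stretch, 6878 and 2414 in the second and 5019 and 8901 in the third. The heights of the shared peaks of these stretches did not alternate. Their median was higher in replicate 2 in each stretch, by 1.48-fold in 16 pairs in the first stretch, 1.49-fold in 7 pairs in the second and 1.36-fold in 11 pairs in the third, against 1.3-fold over all pairs. Single pairs ran from -0.07 to 1.13 on the log2 scale in the first stretch and were all above 0 in the other stretches. The stretches were chosen after the values were seen.

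**Figure D4:**
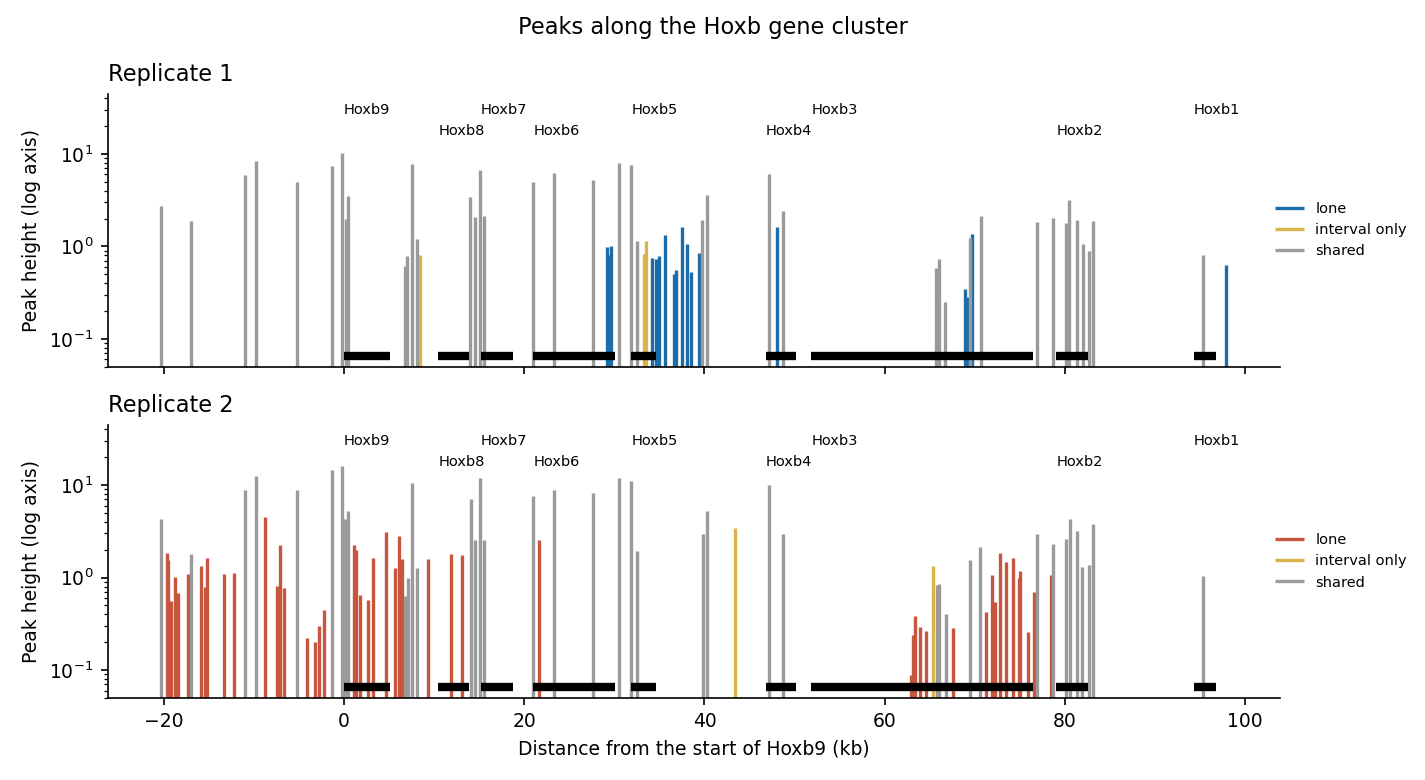
Heights on a log axis of the peaks of each library along the Hoxb cluster, by distance from the start of Hoxb9, with gene bodies as black bars. Colours mark lone peaks, peaks that touched only an interval of the other library's table (interval only) and shared peaks. Lone peaks of replicate 2 fill the space around Hoxb9 and Hoxb3, and those of replicate 1 fill the space after Hoxb5.

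Many genes had several lone peaks. A gene's domain was taken as its body plus at most 50 kb on either side, ending sooner at the TSS of a neighbouring coding gene. Of 20807 autosomal protein-coding genes, 55.3% had a lone peak of replicate 1 in the domain and 64.9% a lone peak of replicate 2. Of all coding genes, 3 or more were found for 3504 genes (16.8%) in replicate 1 and 5080 (24.4%) in replicate 2, and 1622 genes had 3 or more of both. Those 1622 are 46.3% of the first set and 31.9% of the second. More lone peaks of replicate 2 than of replicate 1 were counted for 41.9% of genes, fewer for 26.8% and equal numbers for 31.3%.

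The genes with most lone peaks of replicate 1 had long bodies. Leaving aside Gm20388 (58 of 719 peaks) and Fgfr2 (46 of 314), whose annotated models span 4435 and 2961 kb, they were Zbtb20, a zinc finger repressor gene with 28 lone of 79 peaks, Lrmda with 26 of 97, Immp2l with 25 of 53, Gm37240 with 25 of 132, Macrod2 with 24 of 53, Dlg2 with 23 of 78, Gpc6 with 23 of 78 and Mast4 with 22 of 77. Zbtb20 had 7 lone peaks of 60 in replicate 2 and Gpc6, a cell surface glypican gene, 4 of 58. The shared pairs in the domain of Zbtb20 were higher in replicate 2 by 1.18-fold and those of Gpc6 by 1.22-fold, against 1.3-fold over all pairs.

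The 10 genes with most lone peaks of replicate 2 had bodies from 5.14 kb (Hoxb9) to 4435 kb (Gm20388) long. Beside Gm20388 (136 of 810) and Fgfr2 (64 of 334) they were Gramd1b with 47 lone of 79 peaks, Frmd8 with 35 of 61, Ptprd with 33 of 76, Kcnk3 with 33 of 86, Hoxb9 with 30 of 45, Camta1 with 30 of 110, Slc35f6 with 26 of 58 and Tns1, a focal adhesion gene, with 26 of 82. The domain of Frmd8 includes Neat1, and that of Slc35f6 adjoins that of Kcnk3 and shares peaks with it. Replicate 1 had 13 lone peaks of 44 at Gramd1b, 4 of 58 at Kcnk3, 0 of 16 at Hoxb9 and 1 of 54 at Tns1. The shared pairs were higher in replicate 2 by 1.36-fold at Gramd1b and 1.43-fold at Kcnk3, against 1.3-fold over all pairs.

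By share rather than number, genes with a high proportion of lone peaks had few and low peaks. Among domains with 5 or more peaks the highest shares in replicate 1 were 5 of 5 at Sel1l2, 10 of 12 at Spock3 and 4 of 5 at each of Prdx6b, Calm4 and Pip4p1, with no lone peak over 0.607. In replicate 2 all peaks were lone at Vmn2r97 (7), Cntn6 (7), Gm14412 (6), Obox1 (6) and Gm14409 (5), with none over 0.635. Vmn2r97 encodes a pheromone receptor and Cntn6 a neuronal adhesion protein. Obox1, Gm14412 and Gm14409 belong to families of near-identical copies in the genome.

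Around genes of steroid synthesis more lone peaks came from replicate 2. Over all coding genes, lone peaks made up 14% of the peaks summed over domains in replicate 1 and 18.2% in replicate 2. For the 13 measured of 14 steroidogenesis genes the shares were 9.96% (24 of 241) and 25.5% (75 of 294). Replicate 2 had more lone peaks than replicate 1 at 10 of the 13, fewer at 2 and as many at 1, where 41.9% of all coding genes had more, 26.8% fewer and 31.3% as many. The macrophage list had more at 9 of 14 genes and the immediate early list at 7 of 8. Ties lower the share over all coding genes, of which 8709 had more and 5576 fewer. The lists were not matched to other genes by the number of peaks in the domain. The median over all coding genes was 1 lone peak in each replicate, against 2 and 6 over the steroidogenesis list. Fdxr, which passes electrons to mitochondrial P450 enzymes, had 0 lone peaks of 11 in replicate 1 and 11 of 22 in replicate 2. Star, whose product carries cholesterol into mitochondria, had 1 of 17 and 10 of 26, and Cyp11a1, the side-chain cleavage enzyme, 3 of 22 and 9 of 30. Mrap, whose product takes the ACTH receptor to the cell surface, went the other way with 4 of 16 and 0 of 11.

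The zona glomerulosa list, of the zone that makes aldosterone, had shares of 11.5% (23 of 200) in replicate 1 and 28.7% (72 of 251) in replicate 2. Without Kcnk3, which gave 33 of the 72, they were 13.4% and 23.6%. Cacna1h, a calcium channel gene, had 0 of 25 and 11 of 37, and Vsnl1, a calcium sensor gene, 2 of 15 and 11 of 24. Dab2, an adaptor of endocytosis, had 7 of 15 in replicate 1 and 1 of 9 in replicate 2. The X-zone list, of the innermost cortex of young mice, had 18.5% and 14.9%, with Thrb, a thyroid hormone receptor gene, at 7 of 39 and 2 of 33 and Pik3c2g, a lipid kinase gene, at 6 of 26 and 8 of 27. Without Pik3c2g they were 16.4% and 6.38%.

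Lists of other cell types are given in the same order. The medulla list had 16.2% and 20.7%, with Chga, of chromaffin granules, at 1 of 9 and 7 of 15, and Slc6a2, the noradrenaline transporter, at 4 of 13 and 0 of 10. Without Chga the shares were 16.5% and 18.6%. The list of capsule and stroma had 20.4% and 21.2%, and that of endothelium 15.4% and 24.6%, with the junction gene Cdh5 at 0 of 10 and 12 of 23 and the angiopoietin receptor gene Tek at 8 of 17 and 2 of 12. Macrophages had 7.09% and 22%, lymphocytes 9.52% and 26%, erythroid cells 6.9% and 13.8% and Schwann and sustentacular cells 3.23% and 21.6%. Among possible contaminating tissues, adipocytes had 11.5% and 10.8%, kidney 13.2% and 22.9%, liver 13% and 19.8% and muscle 19.7% and 17.7%. The circadian clock list had 11.1% and 16.6%, with the repressor gene Nr1d1 at 1 of 29 and 13 of 42 and the output factor gene Dbp at 5 of 16 and 0 of 13, and housekeeping genes had 11.3% and 14.3%. The immediate early list, which holds genes of AP-1 proteins such as Fos and Jun, had 6.37% and 15.7%. The median GC content of the peaks in these domains ran from 48.5% (X-zone) to 57.5% (immediate early genes) in replicate 1, against 51.5% over all peaks, and its part in these shares was not tested. In tissue, with 1 library per side, fewer cells of a type, less open chromatin per cell and a technical difference cannot be told apart.

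**Figure D5:**
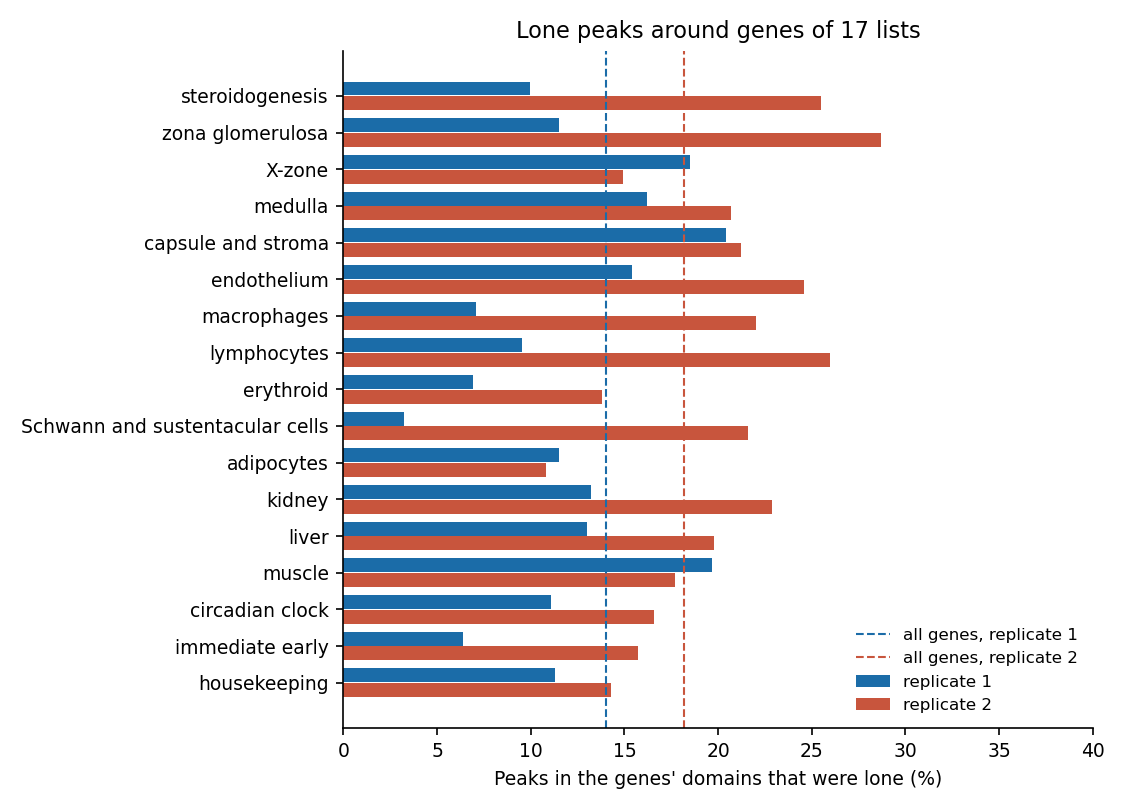
Share of the peaks in the domains of 17 gene lists that were lone, in each library, with dashed lines at the share over all protein-coding genes (14% and 18.2%). Steroidogenesis and zona glomerulosa genes lie below the line in replicate 1 and above it in replicate 2. The lists of macrophages, lymphocytes, Schwann and sustentacular cells, kidney and liver do so too.

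At promoters the directions differed in number. A lone peak lay at the promoter of 6.47% of coding genes in replicate 1 and 11.9% in replicate 2. Of all coding genes, 200 (0.961%) and 389 (1.87%) had such a lone peak and no promoter peak of the other library. Of the genes on the lists this was so for Mc2r, the ACTH receptor gene, Myl1 and Myh1 in replicate 1, with tallest lone peaks in their domains of 0.757, 0.505 and 0.561. In replicate 2 it was so for Kcnk9, Pnmt, Dcn, Pecam1, Spi1, Adgre1, Lck, Sox10, Slc12a1, Pax2 and Myod1. Pnmt makes adrenaline in the medulla, Pecam1 marks endothelium, Spi1 and Adgre1 mark macrophages, and Lck marks T cells. Their tallest lone peaks in the domain ranged from 0.3 at Dcn to 1.1 at Lck.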

How the data were processed

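DNase-seq data of 2 adrenal gland libraries were used. Per the labels and the samples' readme text, the authors made every file from that library's own filtered alignments on mm10, with no pooling. Which aligner, caller and thresholds were used is not given in the sources used here. Peak heights, as deposited, are a signal scaled by the authors. The deposited table of false discovery rates holds p-value-like numbers (q-values) and lists only positions under 0.05, and the deposited footprint lists carry a p-value column that was not used here. Depth per library is unknown beyond the step of the heights.

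Peaks, intervals and footprints were intersected on the autosomes with pandas 2.3.3 and numpy 2.4.6 under Python 3.11.15 (also matplotlib 3.10.9, numba 0.67.0 and scipy 1.17.1). The overlap rule and the 32-mer count were tested on simulated data. GC content, repeat masking, 32-mers and consensus matches were read from the central 200 bp of each peak in GRCm38.p6, and genes and transcription start sites from the basic set of GENCODE M21. Shared peaks of the same heights are shared peaks weighted to the 10 height classes of the lone peaks, a comparison added after the data were seen. Medians and shares are descriptions of these libraries. Each direction has 1 library, so p-values were not computed. Named sites and genes are the 10 tallest lone peaks and the 10 genes with most lone peaks of each direction, the 3 tallest at promoters and with a footprint, the 5 highest shares among domains of 5 or more peaks, and list members with 2 or more lone peaks or one at the promoter, of which examples are given. The members, the 17 gene lists and the 16 consensuses were chosen with earlier results of these data known. Sex chromosomes and the separate parental alleles were not analysed here. A few items that the rule for named sites and genes would name are not reported here.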

Additional observations from a re-analysis of the deposited data

How the results depend on the processing

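Of 90 alternative values, 58 stayed within the spread between the 2 directions (or within 1.5 times a count). The alternative that asked for a larger overlap with the other library's peak kept the condition on false discovery rates. It returned the main value for every result. Its values are among the 58 and say nothing about stability. Values are differences of lone minus shared peaks in percentage points, for replicates 1 and 2. The main ones were -16 and -12.6 for promoters, -5.5 and -1 for GC, -36.6 and -38.4 for footprints and -5.81 and -10.2 for unique sequence. Taking each library's shorter list left 4275 and 4595 lone peaks, with -20.6 for promoters in replicate 1, -15.1 and -18.2 for footprints and -4.19 for unique sequence in replicate 2. Peaks above the library's median height left 869 and 1739, with -23.4 for promoters in replicate 1, -9 and 1 for GC, a reversal in replicate 2, -1.09 and -7.31 for footprints and -0.948 and -2.06 for unique sequence. Without the table of false discovery rates promoters gave -11.3 and -8.93, and footprints -37.9 in replicate 1. With 500 bp around the peak free of the other library they gave -19.4 and -17.9, and footprints -35.1 in replicate 1. Peaks of unique sequence alone gave -35.2 and -35.5 for footprints. Shared peaks weighted to the same heights, an alternative chosen after seeing the data, gave -6.21 and 0.0603 for promoters and 2.5 for GC in replicate 2, both reversed there, -2.12 and -6.89 for footprints and -1.47 and -6.45 for unique sequence. Flanks of up to 10 kb left 1998 and 3021 genes with 3 or more lone peaks, against 3504 and 5080. The causes of these shifts were not tested, except that shorter lists and narrower flanks hold fewer peaks.

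Leaving out a replicate was not run, because the rule needs both libraries. No paired analysis was possible because the 2 libraries form a single group. Read depth is unknown, so that no upper limit can be given for the height that a lone peak had in the other library.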

Other observations

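The other Hox clusters, described after their values were seen, also held lone peaks. In the Hoxc cluster none of 9 genes had 3 or more lone peaks of replicate 1 in the domain and 4 had 3 or more of replicate 2, with 1 lone of 14 peaks and 8 of 20 at Hoxc5. In the Hoxa cluster 4 of 11 genes had 3 or more of replicate 1 and 1 had 3 or more of replicate 2, with 3 of 4 and 0 of 1 at Hoxa11. In the Hoxd cluster the counts were 0 and 1 of 9 genes. Over all 39 autosomal Hox genes they were 9 and 11, beside the 16.8% and 24.4% of all coding genes. At least 1 lone peak was in the domain of 23 and 26 of the 39, beside 55.3% and 64.9% of all coding genes. Domains of neighbouring Hox genes can overlap, so that the same peak can count for several genes.

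Lone peaks of replicate 2 held a larger share of the peaks of crowded regions. With 7 or more shared peaks within 10 kb, 8.26% of peaks of replicate 1 and 16.6% of those of replicate 2 were lone, and in the lowest 3 height classes 46.9% and 61.6%. With no shared peak within 10 kb the shares were 27.5% and 30.6%, and in the lowest 3 classes 48.9% and 53%.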
